A study of Mus musculus with 3 samples.

Results

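6 genes of the pathway that drives branching of the ureteric bud, Gdnf, Gfra1, Ret, Spry1, Etv4 and Etv5, were taken by gene symbol from the 28077 genes listed over 3 plates of mouse embryonic kidney cells. All 6 were listed on each plate. The study, on LGR6 as a marker of nephron progenitor cells, sorted kidney cells into 384-well plates and measured each well by SORT-seq, a 3' single-cell RNA-seq method with molecular identifiers. Members were chosen by name and not by a measured value, but with earlier results of these data known. All mice had a C57BL/6 background. The E12.5 cultured plate held cells of E12.5 kidneys that carried LGR6-EGFP-IRES-CreERT2 together with ROSA26-tdTomato and were grown as explants for 5 days. The E11.5 cultured plate held cells of E11.5 explants with those same alleles, grown for 7 days by the sample title and for 5 days by the stage label. The E11.5 uncultured plate held cells of E11.5 kidneys that carried LGR6-EGFP-IRES-CreERT2 and were not grown in culture. The labels give neither the number of embryos behind a plate nor the sort gate. Each condition was 1 plate, so no difference between plates could be tested, and culture, the ROSA26-tdTomato allele, the sequencing run and, for the E12.5 plate, the stage cannot be told apart.

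In the developing kidney the metanephric mesenchyme secretes GDNF, a ligand that binds the lipid-anchored co-receptor GFRA1 and through it activates the receptor tyrosine kinase RET on the ureteric bud. RET signalling keeps the transcription factors ETV4 and ETV5 and the tip ligand WNT11 expressed at the branching tips. SPRY1 is a feedback inhibitor of receptor tyrosine kinase signalling that limits where buds form, and in mice its loss gives extra ureteric buds. Nephron progenitors, marked by Six2, and stroma, marked by Foxd1, surround the tips, while Epcam marks epithelium of both the ureteric tree and early nephrons. Ret also acts in neural crest cells, including those that form the enteric nervous system.

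RefSeq promoter windows (build GRCm38.p6) were found for 4 of the 6 genes, Gdnf, Gfra1, Spry1 and Etv5. The 250 bases before the first listed start of each are shown 5′ to 3′, because Gdnf and Gfra1 were lower together on both cultured plates while Spry1 and Etv5 were not 2-fold apart on either. The capitals mark the TATA box found.
Gdnf promoter, chr15:7809798-7810047, plus strand: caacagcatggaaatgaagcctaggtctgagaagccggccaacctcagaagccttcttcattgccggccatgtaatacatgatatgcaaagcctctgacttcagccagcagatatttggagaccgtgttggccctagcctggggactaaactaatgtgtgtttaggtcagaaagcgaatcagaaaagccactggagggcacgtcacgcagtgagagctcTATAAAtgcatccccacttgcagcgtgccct
Gfra1 promoter, chr19:58455399-58455648, minus strand: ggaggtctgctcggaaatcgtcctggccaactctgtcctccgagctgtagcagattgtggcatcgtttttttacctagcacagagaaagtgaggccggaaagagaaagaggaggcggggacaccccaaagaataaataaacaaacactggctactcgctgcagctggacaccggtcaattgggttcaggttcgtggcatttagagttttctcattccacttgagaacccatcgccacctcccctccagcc
Spry1 promoter, chr3:37639697-37639946, plus strand: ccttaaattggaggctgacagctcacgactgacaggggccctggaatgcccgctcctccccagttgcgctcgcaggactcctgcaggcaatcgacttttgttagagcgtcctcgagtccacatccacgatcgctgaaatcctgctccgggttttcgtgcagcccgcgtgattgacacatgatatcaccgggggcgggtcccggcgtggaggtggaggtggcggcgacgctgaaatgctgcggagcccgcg
Etv5 promoter, chr16:22439571-22439820, minus strand: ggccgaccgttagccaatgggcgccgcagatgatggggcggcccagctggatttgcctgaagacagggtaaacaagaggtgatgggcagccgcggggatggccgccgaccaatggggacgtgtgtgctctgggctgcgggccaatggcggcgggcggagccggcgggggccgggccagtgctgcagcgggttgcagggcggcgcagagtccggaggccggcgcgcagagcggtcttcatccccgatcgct
On both strands, 4 motifs were searched: the ETS core CCGGAAG, the AP-1 site TGANTCA, the TATA box TATAAA and the cyclic AMP element TGACGTCA. 1 match was found over these 4 windows, the TATA box that begins 31 bases before the Gdnf start. The TATA box letters occurred in 12.4% of all 32851 promoter windows of that length, and the ETS core in 6.91%, the AP-1 site in 6.75% and the cyclic AMP element in 1.55%.

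Kept single-cell wells numbered 200 of 327 on the E12.5 cultured plate, 300 of 327 on the E11.5 cultured plate and 337 of 369 on the E11.5 uncultured plate, with a median of 9212, 8993 and 6732 counts in that order. Levels in CPM, counts per 1000000 counts, were taken over the summed nuclear-encoded counts of the kept wells, and their 95% intervals cover counting error only. Of the wells over 3 times the plate median, called very deep here, 7, 9 and 32 were kept, with 14.97%, 10.6% and 45.6% of the counts. Of the 32 very deep wells of the uncultured plate 18 held both Six2 and Foxd1 and 8 of these Epcam too, so values by well class on that plate are given with and without them. Control wells held no count of 5 of the members, and 5 counts of Spry1 in 15 wells of the uncultured plate, where 7 control wells reached 1000 counts. The summed level of 9 nephron progenitor markers was 383 CPM on the E12.5 cultured plate, 238 CPM on the E11.5 cultured plate and 1352 CPM on the uncultured plate, and that of 9 stromal markers was 13794, 19277 and 2117 CPM in the same order. Dapl1 among the progenitor markers was at 0 on both E11.5 plates, and Calb1, a ureteric marker, was at 0 on the E11.5 cultured plate, where 3 counts would be 0.934 CPM. The plates use the same well barcodes, and 190, 183 and 278 well positions were kept in both plates of a pair. Profiles of wells with the same position correlated like those of other wells (mean r of 0.530 and 0.525 between the cultured plates), and no profiles were identical.

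Ligand and co-receptor were both lower on the cultured plates. Gdnf was at 16.2 CPM on the E12.5 cultured plate (38 counts in 21 wells, 95% interval 11.4 to 22.2), at 8.72 CPM on the E11.5 cultured plate (28 counts in 19 wells, 5.79 to 12.6) and at 49.6 CPM on the E11.5 uncultured plate (206 counts in 70 wells, 43.0 to 56.8). The intervals of both cultured plates lie below that of the uncultured plate. Relative to the uncultured plate Gdnf was 3.06-fold lower on the E12.5 cultured plate (2.16 to 4.45) and 5.68-fold lower on the E11.5 cultured plate (3.82 to 8.76). 1 very deep uncultured well, D1, held 19.5% of the Gdnf counts there, and with very deep wells left out the E12.5 ratio was 0.512. The plate value joins the share of cells of a type and the RNA per cell, so fewer Gdnf cells and less Gdnf per cell cannot be told apart.

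Gfra1, the GDNF co-receptor, was at 8.09 CPM on the E12.5 cultured plate (19 counts, 13 wells), 14.02 CPM on the E11.5 cultured plate (45 counts, 29 wells) and 34.9 CPM on the uncultured plate (145 counts, 60 wells). It was 4.31-fold lower on the E12.5 cultured plate (2.66 to 7.37) and 2.49-fold lower on the E11.5 cultured plate (1.77 to 3.56). Ret, the signalling receptor, was rare on every plate. It had 3 counts in 2 wells on the E12.5 cultured plate (1.28 CPM, 0.263 to 3.73), 38 counts in 7 wells on the E11.5 cultured plate (11.9 CPM, 8.38 to 16.2) and 54 counts in 18 wells on the uncultured plate (12.98 CPM, 9.75 to 16.9). The E12.5 cultured plate thus stood 10.2-fold below the uncultured plate (3.30 to 50.8), while the E11.5 cultured plate was at 0.912 times its level (0.586 to 1.41). That near equality rested on 1 well: without the top Ret well of each plate the E11.5 ratio was 0.411, and without very deep wells 0.202.

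The 3 response genes differed among themselves. Etv4, an ETS factor downstream of RET, was at 14.9 CPM on the E12.5 cultured plate (35 counts, 22 wells), 11.52 CPM on the E11.5 cultured plate (37 counts, 27 wells) and 63.3 CPM on the uncultured plate (263 counts, 95 wells), which put it 4.24-fold lower (2.97 to 6.22) and 5.49-fold lower (3.88 to 7.97) than without culture. Etv5, its close relative, was at 25.1, 28.3 and 33.7 CPM in that plate order (59, 91 and 140 counts), with ratios to the uncultured plate of 0.746 (0.541 to 1.02) and 0.842 (0.640 to 1.10). Both Etv5 intervals include 1. Spry1 was at 128 CPM on the E12.5 cultured plate (300 counts, 94 wells), 208 CPM on the E11.5 cultured plate (668 counts, 193 wells) and 152 CPM on the uncultured plate (632 counts, 169 wells). Against the uncultured plate Spry1 was at 0.841 times on the E12.5 cultured plate (0.730 to 0.966) and at 1.37 times on the E11.5 cultured plate (1.23 to 1.53).

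By a size rule of at least 2-fold with at least 10 counts in the pair, 4 of the 6 genes (Gdnf, Gfra1, Ret and Etv4) were lower on the E12.5 cultured plate than on the uncultured plate and 0 were higher, where 13% of all 15174 genes were lower and 18.9% higher. On the E11.5 cultured plate 3 of the 6 (Gdnf, Gfra1 and Etv4) were lower and 0 higher, beside 11.3% lower and 20.8% higher among 15770 genes. Both comparisons share the uncultured plate. Without very deep wells Gdnf missed the rule on the E12.5 cultured plate (1.95-fold lower, 1.28 to 3.04), which leaves 3 of 6 lower beside 13.6% of genes, and Ret passed it on the E11.5 cultured plate (4.95-fold lower, 2.51 to 10.7), which makes 4 of 6 beside 11.1%. Between the cultured plates, E12.5 over E11.5, Ret passed the rule as 9.27-fold lower (2.94 to 46.9), beside 8.32% of 15342 genes lower and 4.52% higher. That value rested on well L11 of the E11.5 cultured plate, and without very deep wells it was 2.55-fold on 3 and 11 counts, with an interval that includes 1 (0.674 to 14.2). Spry1 was at 0.614 times (0.534 to 0.704), Gdnf at 1.85 times (1.11 to 3.14), and the intervals of Gfra1 (0.319 to 1.01), Etv4 and Etv5 included 1.

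**Figure D1:**
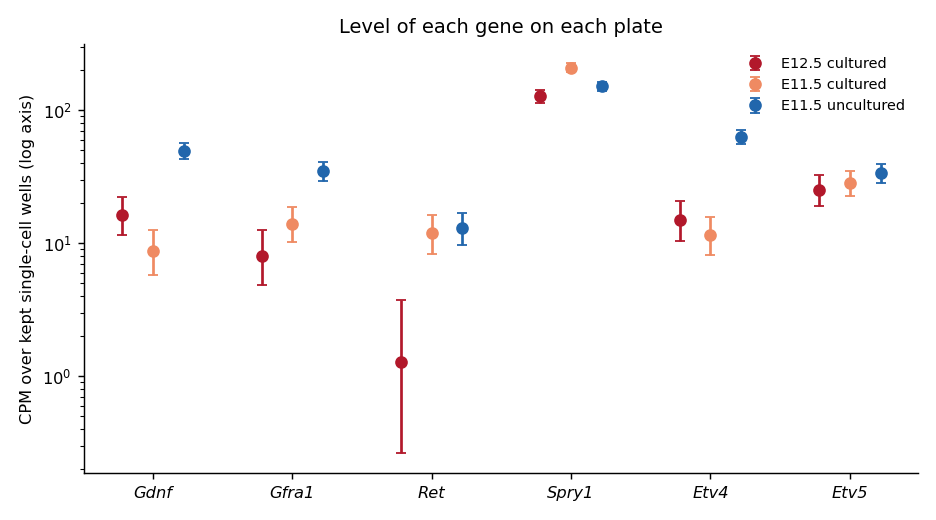
Levels of the 6 genes on the E12.5 cultured, E11.5 cultured and E11.5 uncultured plates in CPM on a log axis, with bars for the 95% Poisson interval of the counts. Gdnf, Gfra1 and Etv4 sit lower on both cultured plates than on the uncultured plate, Ret is at 1.28 CPM on the E12.5 cultured plate, and Spry1 and Etv5 lie less than 2-fold from their uncultured level.

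The share of wells with a count also differed, and was read against macrophage wells (at least 3 of 8 macrophage markers detected), taken as background. Gdnf was detected in 10.5% of E12.5 cultured, 6.33% of E11.5 cultured and 20.8% of uncultured wells, Etv4 in 11%, 9% and 28.2%, and Gfra1 in 6.5%, 9.67% and 17.8%. After each kept well was thinned to 1000 counts these became 3, 0 and 12 wells with Gdnf, 2, 1 and 18 with Etv4 and 0, 5 and 14 with Gfra1. In the 20 uncultured macrophage wells (median 6121 counts, against 6732 over all kept wells) Gdnf was found in 5%, Gfra1 in none, which allows up to 15%, Ret in 5%, Spry1 in 5%, Etv4 in 15% and Etv5 in 35%. Of these 20 wells 10 also held Foxd1 and 5 held Six2, so they are not a clean background. The Ret share over all uncultured wells, 5.34%, lies within the macrophage interval of Ret (0.127 to 24.9%). The Etv5 share, 21.96%, is below the 35% of macrophage wells, but 20 wells are too few to tell these shares apart. Etv5 itself was at 57.8 CPM in macrophage wells. The Spry1 share, 50.1%, and 45.2% without very deep wells, is above the macrophage interval (0.127 to 24.9%). It is not separable from the 15 control wells of that plate, where Spry1 was found in 33.3% (11.8 to 61.6%). No macrophage well of that plate was very deep, and without very deep wells Gdnf was found in 15.7%, Gfra1 in 13.8% and Etv4 in 23.3% of uncultured wells, which lie within the macrophage intervals of Gdnf (0.127 to 24.9%) and Etv4 (3.21 to 37.9%) and below the 15% that none of 20 allows for Gfra1, so for these 3 genes the share was not separable from that background.

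The wells that carried Ret differed between the plates. In the uncultured kidney Ret lay mostly in epithelial wells: of 54 counts in 18 wells, 45 counts (83.3%) were in 12 wells with Epcam, and 35 (64.8%) in 6 Epcam wells that also had at least 2 of 5 ureteric markers and were not neural wells. Well O7 held 19 Ret counts with 30.1 of Calb1, 8 of Epcam, 5 of Gfra1, 4 of Etv4, 8 of Spry1 and 3 of Wnt11. Well J7 held 7 Ret counts with 22.1 of Calb1, 10 of Epcam, 7 of Gfra1 and 8 of Wnt11, and well B13 held 3 with 27.1 of Calb1, 14 of Epcam and 16 of Gfra1. O7 and J7 carry receptor, co-receptor, tip ligand and ureteric marker together, B13 had no Wnt11, and all 3 were at 0 for Gdnf. Wells with Wnt11, the ligand that RET signalling maintains at the tip, held 41 of the 54 Ret counts (75.9%), and wells with Gfra1 held 40 (74.1%). Neural markers were found in D5, with 4 Ret counts and 41 counts over 9 of 13 neural markers, and in N1, with 1 Ret count and 58 counts over 8 of them. The rule used here for neural wells, at least 3 counts over at least 2 of the 13 markers, does not separate a neural class on the uncultured plate: of the 33 wells it takes there 24 held Six2 and 16 were very deep, and they had 255 CPM of neural and 1677 CPM of nephron progenitor markers. The neural wells of the E12.5 and E11.5 cultured plates had 4747 and 3748 CPM of neural markers, but the rule does not take neural cells alone there either. The 4 E12.5 wells also had 4003 CPM of macrophage and 1086 CPM of nephron progenitor markers. The 16 E11.5 wells had 13608 CPM of stromal markers.

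On the E11.5 cultured plate Ret was mostly in neural wells. Of its 38 counts, 32 (84.3%) lay in 3 neural wells: L11 had 27.1 Ret counts beside 564.6 counts of neural markers, B12 had 3 beside 162.5, and P8 had 2 beside 200 neural counts. L11 is very deep (39750 counts) and held 71.1% of the Ret counts of the plate. In the 16 neural wells Ret was at 99.9 CPM, against 2.08 CPM outside them, a ratio of 47.9 (19.8 to 140.1), or 13.3 (3.22 to 52.4) without very deep wells. 1 Ret well, E14, had Epcam, with 1 Ret count, 9 of Epcam and 14 of Gata3, and neural well P8 had counts of 3 ureteric markers without Epcam. 1 Ret well, L18, had Gfra1 counts (3 of Ret and 2 of Gfra1). On the E12.5 cultured plate the 3 Ret counts were 2 in well C13, which had 292.6 neural counts, and 1 in well I8. Summed levels of the 13 neural markers were 156 CPM on the E12.5 cultured plate, 411 CPM on the E11.5 cultured plate and 136 CPM on the uncultured plate, and those of 5 ureteric markers 54.1, 42.0 and 98.0 CPM in that order, and their part in the plate levels of Ret was not tested. Wells with Wnt11 carried no Ret on the E12.5 cultured plate (16 wells), 5.43 CPM on the E11.5 cultured plate (38 wells) and 32.6 CPM on the uncultured plate (31 wells, 23.4 to 44.3). These wells were not alike between plates. Of the Wnt11 counts 15% lay in Epcam wells on the E12.5 cultured, 0% on the E11.5 cultured and 63.2% on the uncultured plate.

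**Figure D2:**
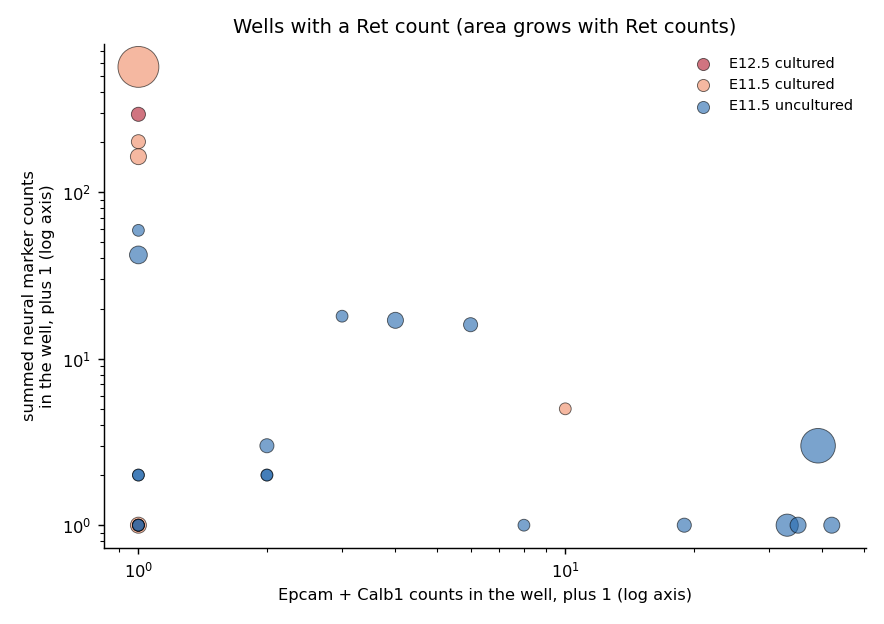
Each kept well with Ret on the 3 plates, placed by its counts of Epcam and Calb1 plus 1 (x axis) and of the neural markers plus 1 (y axis), both on log axes, with the point area set by its Ret counts. The largest uncultured points, such as O7 with 19 Ret counts, lie on the epithelial side, and the largest E11.5 cultured point, L11 with 27.1, lies on the neural side.

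Within the uncultured plate, wells were set in classes by at least 1 count of Six2 (161 wells), Foxd1 (205 wells) or Epcam (38 wells), and the classes overlapped, with 102 wells in both of the first and 18 in all 3. Gdnf, Gfra1 and Etv4 were each higher in Six2 wells than in the wells outside. Gdnf was at 62.6 CPM in Six2 wells and 20.3 CPM outside, a ratio of 3.09 (2.04 to 4.85), and 2.48 (1.45 to 4.43) without very deep wells. Etv4 was at 80.7 CPM in Six2 wells and 24.2 CPM outside (3.34, 2.29 to 5.02), and Gfra1 at 42.4 and 17.9 CPM (2.36, 1.51 to 3.87). For these 2 genes leaving out very deep wells gave 3.04 and 2.54. Spry1 and Etv5 were 1.42 (1.18 to 1.72) and 1.504 (1.01 to 2.31) times their level outside, and the Ret ratio of 0.970 (0.533 to 1.84) included 1. The 3 of 6 genes past 2-fold stand beside 5.5% of 13481 genes higher and 9.75% lower, and beside 4.89% and 10.3% without very deep wells. Six2 wells were deeper, with a median of 9671 counts and 5765 outside, and thinning turned the ratio of Gfra1 and of Etv4 below 1, at low counts.

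In Foxd1 wells the picture depended on the wells that also held Six2. Over all 205 Foxd1 wells Ret was at 4.73 CPM, against 33.4 CPM in the wells outside (0.141, 0.0711 to 0.266), Spry1 at 130 and 206 CPM (0.630, 0.536 to 0.742) and Gfra1 at 30.7 and 45.1 CPM (0.681, 0.481 to 0.972). Gdnf was 1.73 times its level outside (1.22 to 2.52), but 1.37 (0.818 to 2.34) without very deep wells. In the 98 wells with Foxd1 and neither Six2 nor Epcam, Gdnf was at 18.3 CPM and 55.4 CPM in all other wells (0.330), Gfra1 at 6.09 CPM (0.151), Etv4 at 19.8 CPM (0.277, 0.146 to 0.483), Spry1 at 62.4 CPM (0.370) and Etv5 at 0.455 times its level elsewhere. In the 52 wells with Six2 alone of the 3 markers Gdnf was at 49.6 CPM, Gfra1 at 28.6, Etv4 at 64.9 and Spry1 at 202 CPM. Over all kept wells of the plate, which include those with Six2 and a further marker, they were at 49.6, 34.9, 63.3 and 152 CPM. Levels in Six2-only wells thus stood above those in Foxd1-only wells, but for Gdnf, Gfra1 and Etv4 not clearly above the plate level. By the size rule 1 of 6 genes, Ret, was lower in Foxd1 wells and 0 were higher, beside 7.56% of genes lower and 5.32% higher. Without very deep wells Ret (0.122), Spry1 (0.431) and Gfra1 (0.452) were lower, 3 of 6, beside 6.29% lower and 5.62% higher.

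Ret and Gfra1, the receptor side, were higher in Epcam wells. Ret was at 31.3 CPM in Epcam wells and 3.31 CPM outside (9.48, 4.57 to 22.05), and without very deep wells at 154 CPM and 1.99 CPM (77.4, 27.9 to 298). Of the 39 Ret counts behind the 154 CPM, 19 were in well O7. Gfra1 was at 57.8 and 22.8 CPM (2.54, 1.80 to 3.58), and without very deep wells at 150.1 and 23.9 CPM (6.29, 3.998 to 9.83). The response genes were higher in Epcam wells as well, Etv4 at 87.8 and 50.3 CPM (1.74, 1.36 to 2.24), Etv5 at 45.2 and 27.5 CPM (1.64, 1.16 to 2.32) and Spry1 at 191 and 131 CPM (1.46, 1.24 to 1.71). Leaving out very deep wells gave ratios of 2.39, 2.501 and 2.41. The direction of the ligand turned with the very deep wells: Gdnf was at 72.5 CPM in Epcam wells and 37.5 CPM outside (1.93, 1.46 to 2.56), but at 27.7 and 32.8 CPM without very deep wells (0.842, 0.326 to 1.83). Of all genes 2.55% were at least 2-fold higher in Epcam wells and 8.92% lower, and 5.81% and 10.1% without very deep wells. Past 2-fold higher were 2 of the 6 members (Ret and Gfra1) with all wells and 5 (all but Gdnf) without very deep wells.

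Among Epcam wells the receptor side was highest in the 16 with at least 2 ureteric markers. Of these 16 wells 4 were very deep. Without very deep wells Ret was at 308 CPM in the remaining ureteric ones and 28.6 CPM in the other Epcam wells (10.8, 3.85 to 41.7), with 19 of the ureteric counts in well O7. Gfra1 was at 308 and 21.5 CPM (14.4, 4.53 to 73.0) and Spry1 at 511 and 129 CPM (3.97, 2.30 to 7.15). The intervals of Etv4 (0.841 to 4.49) and Etv5 (0.969 to 10.7) included 1, and Gdnf had 2 counts. With all wells the Ret ratio was 5.29 (2.09 to 17.2) and the Gfra1 ratio 2.08 (1.24 to 3.64), 2 of 6 members higher beside 6.22% of genes higher and 4.87% lower. Without very deep wells 4 of 6 were higher (Ret, Gfra1, Spry1 and Etv5), beside 11.2% higher and 12% lower. In the 65 wells with none of Six2, Foxd1 and Epcam, Ret was at 0, where 3 counts would be 5.90 CPM, Gfra1 at 7.87, Etv4 at 9.84, Gdnf at 19.7, Etv5 at 23.6 and Spry1 at 128 CPM.

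**Figure D3:**
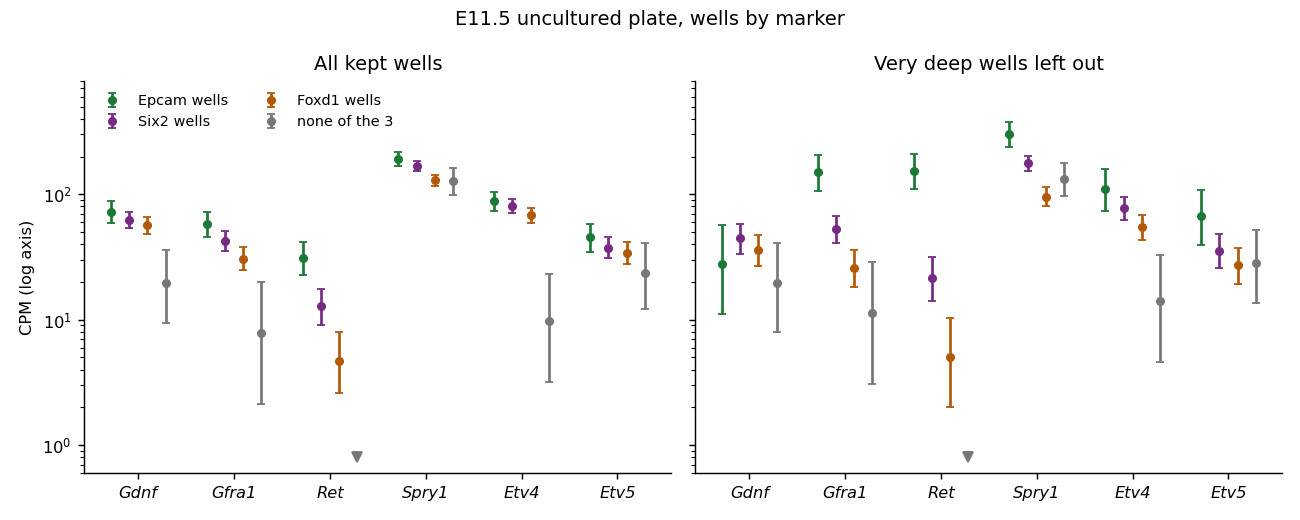
Levels in CPM on a log axis, with 95% Poisson intervals, in Epcam, Six2 and Foxd1 wells and in wells with none of the 3 markers of the E11.5 uncultured plate, with all kept wells on the left and very deep wells left out on the right. Triangles mark 0 counts. Ret is highest in Epcam wells in both panels (31.3 and 154 CPM), and Gdnf in Epcam wells is at 72.5 CPM on the left and 27.7 CPM on the right.

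Gdnf, Gfra1 and Etv4 were also lower after culture when wells with Six2 were compared. In wells with Six2 alone of the 3 markers, the intervals of Gfra1 and Etv4 on the E12.5 cultured plate included 1. In Six2 wells Gdnf was at 21.8 CPM on the E12.5 cultured plate (41 wells), 12.3 CPM on the E11.5 cultured plate (52 wells) and 62.6 CPM on the uncultured plate, or 2.87-fold lower (1.69 to 5.24) and 5.07-fold lower (2.52 to 11.9). Gfra1 in these wells was at 15.98, 10.8 and 42.4 CPM in that order, 2.65-fold (1.43 to 5.46) and 3.92-fold lower (1.85 to 9.97). Etv4 was at 30.5, 18.5 and 80.7 CPM, 2.64-fold (1.69 to 4.35) and 4.35-fold lower (2.44 to 8.55). Each of the 3 remained below its uncultured level without very deep wells, with a lowest fold of 1.92 (1.18 to 3.28) for Etv4 on the E12.5 cultured plate. Spry1 in Six2 wells was at 176 CPM, 184 CPM and 167 CPM, and Etv5 at 33.4, 41.7 and 37.5 CPM, with intervals of the ratios to the uncultured plate that include 1. In wells with Six2 alone of the 3 markers (18, 25 and 52 wells), compared after seeing the data, Etv4 was at 46.1, 15.3 and 64.9 CPM, a ratio of 0.710 (0.344 to 1.38) on the E12.5 cultured plate and 4.24-fold lower (1.51 to 16.5) on the E11.5 cultured plate. Gdnf in these wells was 2.80-fold (1.06 to 9.33) and 6.49-fold lower (1.62 to 56.4), on 5 and 2 counts, and without very deep wells the E12.5 interval included 1 (1.963-fold, 0.687 to 6.85). Gfra1 had 3 and 1 counts in them, and its E12.5 interval included 1. Spry1 was lower in Six2-only wells of the E11.5 cultured plate, at 111 CPM, against 202 CPM on the uncultured plate (1.82-fold, 1.20 to 2.85), a difference that the overlapping class did not show.

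In Foxd1 wells the plate differences of Gdnf and Etv4 depended in part on wells that also held Six2. Over all Foxd1 wells Gdnf was at 21.3 CPM on the E12.5 cultured plate, 8.60 CPM on the E11.5 cultured plate and 56.4 CPM on the uncultured plate (2.65-fold lower, 1.72 to 4.25, and 6.56-fold lower, 3.57 to 13.4), and without very deep wells it was 1.75-fold (1.01 to 3.14) and 5.48-fold lower (2.47 to 14.3). In wells with Foxd1 alone of the 3 markers (72, 76 and 98 wells) Gdnf was at 19.4, 5.45 and 18.3 CPM, a ratio of 1.06 (0.456 to 2.51) on the E12.5 cultured plate and 3.35-fold lower (1.10 to 12.1) on the E11.5 cultured plate, where leaving out very deep wells gave 2.499-fold (0.778 to 9.32). Etv4 in all Foxd1 wells was at 7.99, 14.1 and 68.3 CPM, 8.54-fold lower (4.41 to 18.9) and 4.85-fold lower (2.99 to 8.34), and 6.31-fold and 3.24-fold without very deep wells. In Foxd1-only wells Etv4 had 3, 10 and 13 counts, 4.76-fold lower (1.31 to 26.04) on the E12.5 cultured plate and 1.81-fold lower, with an interval that includes 1 (0.735 to 4.62), on the E11.5 cultured plate. Spry1 in Foxd1 wells of the E11.5 cultured plate stood at 209 CPM, against 130 CPM on the uncultured plate, 1.61 times (1.37 to 1.88) and 2.29 times (1.84 to 2.86) without very deep wells, and in Foxd1-only wells 3.22 times (2.28 to 4.63).

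Within the E12.5 cultured plate Etv4 and Gfra1 were higher in Six2 wells than outside them. Etv4 was at 30.5 CPM in Six2 wells and 8.43 CPM outside (3.62, 1.76 to 7.69), and Gfra1 at 15.98 and 4.82 CPM (3.32, 1.22 to 9.50), 2 of 6 members at least 2-fold higher, where 3.5% of all genes were higher and 8.51% lower. Without very deep wells these ratios were 6.77 and 3.81. Gdnf was at 21.8 and 13.8 CPM (1.57, 0.763 to 3.15), an interval that includes 1. In Foxd1 wells of that plate 1 of 6 members, Etv4, was past 2-fold, 2.66-fold lower (1.21 to 6.46), beside 10.6% of genes lower and 4.56% higher, and without very deep wells the ratio was 0.443 with an interval that includes 1 (0.170 to 1.04). On the E11.5 cultured plate Etv4 was at 18.5 CPM in Six2 wells and 9.75 CPM outside (1.90, 0.869 to 3.92), and Etv5 was at 1.67 times its level outside (1.02 to 2.66), and Ret, with 1 count in Six2 wells, was the 1 member past 2-fold (0.107, 0.00264 to 0.634), beside 7.67% of genes lower and 3.82% higher. The level outside was set by well L11, and without very deep wells the Ret ratio was 0.404 (0.00931 to 2.84). Gfra1 in Foxd1 wells of that plate was at 7.82 CPM, against 18.1 CPM outside (0.432, 0.191 to 0.890), and 30 of its 45 counts lay in the 166 wells with none of the 3 markers. Besides Gfra1, past 2-fold lower like 7.66% of genes, Ret was past 2-fold higher there like 4.79% of genes (6.69, 2.89 to 18.0), a value set by well L11: without very deep wells it was 0.965.

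Epcam wells were few after culture, 17 on the E12.5 and 10 on the E11.5 cultured plate. No Ret count fell in the E12.5 cultured Epcam wells, where 3 counts would be 16.2 CPM, and no Gdnf count in the E11.5 cultured ones, where 3 counts would be 27.6 CPM. Spry1 was at 414 CPM in Epcam wells of the E11.5 cultured plate and 201 CPM outside (2.06, 1.49 to 2.79), and Gfra1 (2.78, 0.724 to 7.68) and Etv4 (3.46, 0.889 to 9.72), each on 4 Epcam counts, were also past 2-fold, 3 of 6 beside 13.5% of genes higher and 8.95% lower. Well F6 held 20 of the 45 Spry1 counts and all 4 Etv4 counts of these wells, and without it Spry1 was at 274 CPM, 1.36 times the level outside (0.876 to 2.03), and Etv4 at 0. No Epcam well of the cultured plates was very deep. Epcam wells of the E12.5 cultured plate held 4 Gfra1 counts, 3.11 times the level outside, with an interval that includes 1 (0.752 to 9.77), and Spry1 there was at 1.64 times its level outside (1.13 to 2.32) but at 0.448 times in wells with Epcam alone of the 3 markers. The 5 E12.5 cultured Epcam wells with ureteric markers had no count of any member, and Spry1, with a limit of 50.7 CPM there, was at 293 CPM in the other 12 Epcam wells.

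Members were also read by the well. Of the 18 uncultured Ret wells 15 had Spry1, 11 had Etv4, 9 had Etv5 and 9 had Gfra1, the last being 50% of the Ret wells and 15% of the 60 Gfra1 wells. Over all kept uncultured wells Spry1 was found in 50.1%, Etv4 in 28.2%, Etv5 in 21.96% and Gfra1 in 17.8%. Most wells of the response genes had no Ret, which was in 15 of 169 Spry1, 11 of 95 Etv4 and 9 of 74 Etv5 wells. Without very deep wells 10 of 13 Ret wells had Spry1, 6 had Etv4, 5 had Etv5 and 5 had Gfra1. Gdnf and Ret shared 4 wells, with a median of 112202 counts, and none of the 48 Gdnf and 13 Ret wells that remained without very deep wells. The 4 wells are 5.71% of the Gdnf wells, beside Ret in 5.34% of all kept wells. Without very deep wells Ret was in 4.26% of wells, too few for the 0 to show that Gdnf and Ret lie apart. Gdnf and Gfra1, ligand and co-receptor, shared 23 wells, 32.9% of the 70 Gdnf wells and 38.3% of the 60 Gfra1 wells, and 9 of the 48 and 42 without very deep wells. After culture Ret and Gfra1 shared 0 of 2 Ret wells on the E12.5 and 1 of 7 on the E11.5 cultured plate.

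On the cultured plates, 42 wells each were labelled as holding more than 1 cell, and 38 of the E12.5 and 36 of the E11.5 plate passed 1000 counts. On the E12.5 cultured plate these multi-cell wells were richer in ligand, co-receptor and both ETS factors. Gdnf was at 74.8 CPM in multi-cell wells and 16.2 CPM in single-cell wells (4.62, 2.96 to 7.27), Gfra1 at 53.0 and 8.09 CPM (6.55, 3.63 to 12.2), Etv4 at 104 and 14.9 CPM (7.01, 4.59 to 10.9) and Etv5 at 68.6 and 25.1 CPM (2.73, 1.80 to 4.10). Etv4 was found in 23 of the 38 multi-cell wells. Spry1 was at 164 and 128 CPM (1.28, 1.02 to 1.61), and Ret had 2 counts in multi-cell and 3 in single-cell wells (2.44, 0.204 to 21.3). These 4 of 6 genes past 2-fold stand beside 9.65% of 13602 genes higher and 11.2% lower. In the same wells the progenitor markers Six2 and Cited1 were at 5.23 and 9.84 times and Epcam at 4.83 times their single-cell level, while the stromal Col1a1 was 3.61-fold lower.

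On the E11.5 cultured plate the multi-cell wells stood less far apart. Gdnf was at 19.03 CPM in multi-cell wells and 8.72 CPM in single-cell wells (2.18, 1.01 to 4.43), the 1 member past 2-fold higher, beside 6.01% of 14431 genes higher and 9.35% lower. It was found in 5 of the 36 multi-cell wells, and well B22 held 50% of its 12 counts there. Gfra1 was at 20.6 and 14.02 CPM (1.47, 0.728 to 2.78), Etv4 at 17.4 and 11.52 CPM (1.51, 0.697 to 3.03) and Spry1 at 205 and 208 CPM (0.984). Etv5 was at 14.3 CPM and 28.3 CPM (0.504, 0.223 to 0.999), and Ret had 1 count in multi-cell wells and 38 in single-cell wells (0.134, 0.00331 to 0.793), the 1 member past 2-fold lower. Well L11 held 27.1 of those 38, and without very deep single-cell wells the Ret ratio was 0.414 (0.00961 to 2.85). Six2 was at 4.76 times, Cited1 at 5.09 times and Epcam at 4.48 times the single-cell level. The stromal markers were not lower here: Foxd1 was at 3.90 times (3.27 to 4.64) and Col1a1 at 1.11 times. Well D19 held 71.6% of the multi-cell Foxd1 counts. The labels do not say how the multi-cell wells were gated, and the part of the marker levels in these values was not tested.

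**Figure D4:**
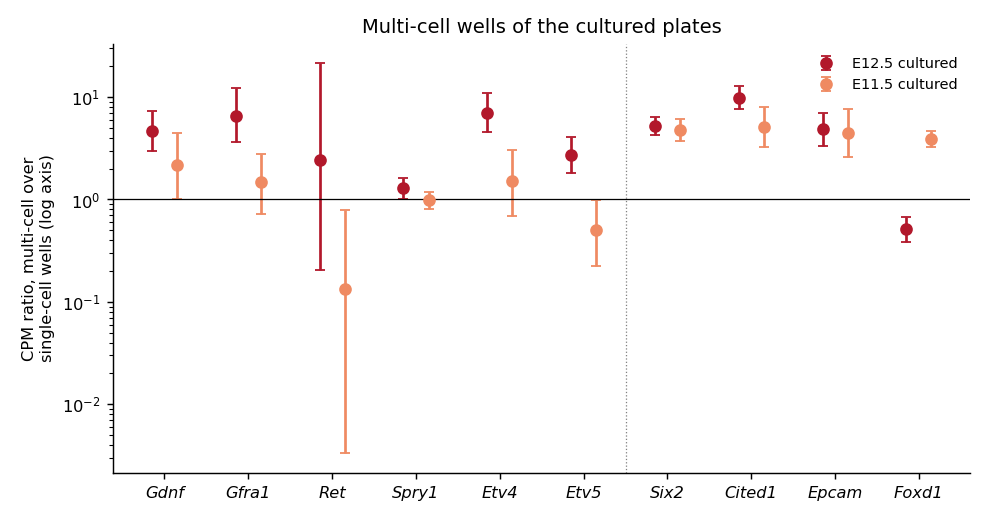
CPM in multi-cell wells over CPM in single-cell wells of the same plate on a log axis, for the 6 members and the markers Six2, Cited1, Epcam and Foxd1 on the E12.5 and E11.5 cultured plates, with 95% intervals of the split of counts. Etv4 (7.01) and Gfra1 (6.55) stand highest among the members on the E12.5 plate, and Etv5 lies above 1 on that plate (2.73) and below 1 on the E11.5 plate (0.504).

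Nrtn, Artn and Gfra2, another set of ligands and co-receptor of the family, were higher on both cultured plates. Gfra2, the co-receptor of neurturin, was at 97.1 CPM on the E12.5 cultured plate (228 counts, 82 wells), 64.2 CPM on the E11.5 cultured plate (206 counts, 100 wells) and 4.33 CPM on the uncultured plate (18 counts, 16 wells), 22.4 times (13.9 to 38.5) and 14.8 times (9.15 to 25.5) higher. The well with the most held 8.33%, 5.34% and 11.1% of these counts, so the Gfra2 signal was spread over many wells. Nrtn, the gene of neurturin, was at 21.3, 10.9 and 2.16 CPM (50, 35 and 9 counts), 9.84 (4.79 to 22.8) and 5.04 times (2.37 to 11.9) its uncultured level. Artn, which encodes artemin, had 8, 18 and 2 counts, ratios of 7.08 (1.41 to 68.5) and 11.7 (2.79 to 104). Gfra3, the artemin co-receptor, was at 6.81, 15.6 and 6.01 CPM, 2.59 times higher on the E11.5 cultured plate (1.57 to 4.37), and 100% of its counts on the E12.5 and 68% on the E11.5 cultured plate lay in neural wells. On the E12.5 cultured plate well C13 alone held 15 of its 16 counts. Of the 6 genes of this list with at least 10 counts in the pair, 3 were higher and 0 lower on the E12.5 cultured plate (median log2 ratio 1.78, against −0.01 over all genes), and 4 higher and 0 lower on the E11.5 cultured plate (1.85, against 0.07). Ncam1, an alternative GDNF receptor, had the highest level of the list on each plate, 684, 606 and 414 CPM.

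**Figure D5:**
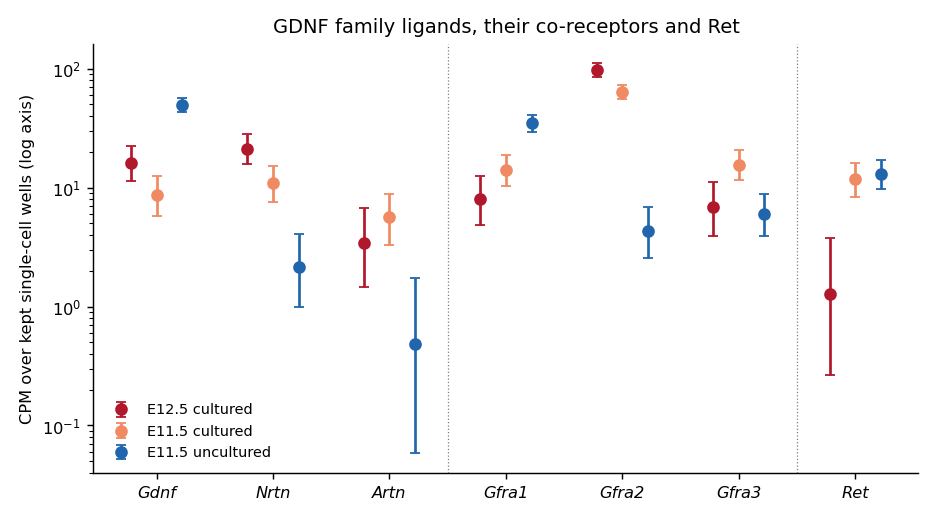
Levels in CPM on a log axis, with 95% Poisson intervals, of the ligands Gdnf, Nrtn and Artn, the co-receptors Gfra1, Gfra2 and Gfra3 and the receptor Ret on the E12.5 cultured, E11.5 cultured and E11.5 uncultured plates. Gdnf and Gfra1 are highest on the uncultured plate (49.6 and 34.9 CPM), and Gfra2 is at 97.1 and 64.2 CPM on the cultured plates and 4.33 CPM on the uncultured plate.

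Several activators of Gdnf were lower on the cultured plates. The counts of the pathway lists stand beside 18.9% of all genes higher and 13% lower on the E12.5 cultured plate and 20.8% higher and 11.3% lower on the E11.5 cultured plate. Of 17 measured activators of Gdnf, 1 was at least 2-fold higher and 9 lower (52.9%) on the E12.5 cultured plate (median log2 −1.12), and 0 higher and 8 lower (47.1%) on the E11.5 cultured plate (−0.58). Eya1, a transcriptional co-activator needed for Gdnf expression in mice, was at 17.9 CPM on the E12.5 cultured plate, 24.6 CPM on the E11.5 cultured plate and 208 CPM on the uncultured plate, 11.7-fold (8.55 to 16.3) and 8.47-fold lower (6.72 to 10.8). The transcription factor Sall1 was 5.26-fold and 7.81-fold lower. Of 7 genes that limit Gdnf or budding, 0 were higher, and 2 were lower on the E12.5 (median log2 −0.66) and 3 on the E11.5 cultured plate (−0.01), among them the forkhead factor Foxc1, 2.82-fold and 4.96-fold lower, and the SLIT receptor Robo2, 4.20-fold and 3.05-fold lower. Of 10 regulators of Ret, 5 were lower and 0 higher on each cultured plate (median log2 −0.78 and −1.28). Aldh1a2, whose enzyme makes the retinoic acid that keeps Ret expressed in the bud, was at 113, 86.0 and 693 CPM in that plate order, 6.14-fold (5.41 to 6.99) and 8.06-fold lower (7.12 to 9.15).

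Downstream genes were mixed. Of 10 RET targets and tip genes, 1 was higher (10%) and 4 lower (40%) on the E12.5 cultured plate (median log2 −0.84, and 0.08 among genes with at least 50 counts), and 2 higher (20%) and 3 lower (30%) on the E11.5 cultured plate (−0.29). Met, the receptor of hepatocyte growth factor, was 2.13-fold lower on the E12.5 and 3.61-fold lower on the E11.5 cultured plate. Mmp14, a matrix metalloproteinase also made by stroma, was at 441, 440 and 144 CPM in plate order, 3.08 and 3.07 times higher. Etv1, the third gene of the Etv4 and Etv5 family, was 2.04 times higher on the E11.5 cultured plate (1.59 to 2.65). Of 20 genes that carry receptor tyrosine kinase signals, 2 were higher on the E12.5 and 3 on the E11.5 cultured plate and 0 lower on either (median log2 −0.01 and 0.01), 10% and 15% of the list, beside 18.9% and 20.8% of all genes higher. Among these was Shc1, an adaptor that binds active RET, at 2.21 and 2.81 times its uncultured level.

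Of 8 measured feedback inhibitors other than Spry1, 0 were higher and 1 lower on the E12.5 cultured plate (median log2 −0.37), and 1 higher and 1 lower on the E11.5 cultured plate (0.05), shares near or below those of all genes. Spry2, a paralogue of Spry1, was 2.25 times higher on the E11.5 cultured plate (1.70 to 2.98), and Dusp4, a phosphatase of MAP kinases, was lower on both, with 2 counts on the E12.5 cultured plate (2.93 to 96.5-fold lower) and 5 on the E11.5 cultured plate (2.44 to 20.05). Of 10 FGF ligands and receptors 3 were higher (30%) and 4 lower (40%) on each cultured plate (median log2 −0.55 and −0.79), beside 18.9% and 20.8% of all genes higher and 13% and 11.3% lower. Fgf10, a mesenchymal ligand that supports branching without GDNF in mice lacking Spry1, was 6.32-fold lower on the E12.5 (3.73 to 11.6) and 2.59-fold lower on the E11.5 cultured plate (1.88 to 3.63). Fgf2 was 18.2 times (6.57 to 69.8) and 40.2 times higher (15.3 to 150), on 4 uncultured counts.

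Over the 337 uncultured wells, 4 of the 5 genes whose values were most like Ret were Calb1 (Pearson r 0.615), Rprm (0.543), Mal2 (0.539) and Epcam (0.519). Those most like Gfra1 were also epithelial in part: Cdh1 (0.401), Kcnk1 (0.389), Cldn6 (0.384), Dyrk3 (0.380) and Mal2 (0.370). For Etv4 they were Six2 (0.367), Uncx (0.345), Sel1l3 (0.323), Capn6 (0.319) and Eya1 (0.300), and for Gdnf Sall1 (0.325), Apex1 (0.305), Uncx (0.293), Tril (0.287) and Eya1 (0.287). Spry1 was most like Cldn6, Emid1, Wfdc2, Hoxb2 and Hnrnpab (0.367 to 0.308), and Etv5 like Hs3st3b1, Map3k2, Gpsm3, Fam49b and Trim71 (0.319 to 0.258). These coefficients are over wells of 1 plate that differ in depth, and those under 0.4 are weak. Among the members themselves Gfra1 and Ret had r = 0.330 and Gdnf and Ret r = −0.0793 over the same wells.

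Over 12 values, from 3 plates and 4 classes of wells (Six2, Foxd1 or Epcam alone of the 3 markers, or none of them), other genes came first. Among the genes most like Gfra1 were Ciao1 (0.961), Psma3, Rprm and Maea (0.913), and among those most like Ret Ctnnd2 (0.934), Vta1, Cep83 and Tmem70 (0.873). Gdnf was most like Prkd1 (0.975), Cenpw, Ndufaf2, Noc4l and Cfdp1 (0.920), Etv4 like Sdhaf2 (0.942), Lpin2, Padi2, Ly75 and Csrp2bp (0.921), Etv5 like Rad54l2 (0.970), Cops3, Cd320, Mtf1 and Cdkn2aip (0.913), and Spry1 like Rnf141 (0.895), Coasy, Syvn1, Cmtm6 and Agfg1 (0.873). With 12 points that share plates, and 12268 genes compared, these lists are a description.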

How the data were processed

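3 plates of 384 wells were analysed, 1 per condition. Per the labels' protocols, kidneys and explants were dissociated with collagenase, sorted with a FACSAria II and made into SORT-seq libraries, and explants grew in medium with 10% fetal calf serum. Reads went through STAR 2.6.1a and featureCounts 1.5.2 with genome GRCm38.p5, per the submitters' processing notes; in the sources used here their settings are not given. The authors deposited expected counts per gene and well, molecular identifiers corrected for repeated draws from 4096: within 0.1, 100% of the values follow that correction. The design had allowed for whole or expected counts. 1 column per plate without a known well, with 4.27%, 4.26% and 4.21% of the counts of the E12.5 cultured, E11.5 cultured and uncultured plate, was not used. By their descriptions the cultured plates share a sequencing run that the uncultured plate does not.

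From these counts, wells were kept that reached 1000 counts with no more than 30% of them mitochondrial. CPM over nuclear-encoded genes was computed from summed counts, with exact Poisson 95% intervals. Ratios have Clopper-Pearson intervals of the split of counts, computed on rounded counts (SciPy 1.17.1 and NumPy 2.4.6 under Python 3.11.15, with pandas 2.3.3 and Matplotlib 3.10.9). A count of 0 was given a limit of 3 counts. Thinning drew 1000 counts per well. Ureteric wells had Epcam and at least 2 of 5 ureteric markers, neural wells at least 3 counts over at least 2 of 13 neural markers. No doublet caller was run on sorted wells. A group is 1 plate, so no p-value was computed. Scripts were tested on simulated data.

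Named genes were the 6 members, from each pathway list up to the 4 best counted genes at least 2-fold apart with an interval leaving out 1, the gene with the highest CPM of a list, the 5 genes most like each member, by r of log2(CPM + 10) over 12 class values or of log counts per 10000 over wells, and marker genes. The members and lists were chosen with earlier results of these data known. Values of 2 genes that these rules name are not reported here.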

Additional observations from a re-analysis of the deposited data

Results flagged for a closer look

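Etv5 went opposite ways in the multi-cell wells of the 2 cultured plates. It was at 2.73 times its single-cell level on the E12.5 cultured plate and at 0.504 times on the E11.5 cultured plate, and the difference between the plates was not tested. On the E11.5 cultured plate the multi-cell value rests on 9 counts, of which well D19 held 55.6%.

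Spry1 was below its uncultured level on the E12.5 cultured plate, at 0.841 times, and above it on the E11.5 cultured plate, at 1.37 times. Both ratios share the uncultured plate, and the difference between them was not tested.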

How the results depend on the processing

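With very deep wells left out the Gdnf ratio of the E12.5 cultured to the uncultured plate was 0.512 and the Ret ratio of the E11.5 cultured to the uncultured plate 0.202, and with the top well of the gene left out that Ret ratio was 0.411. Weighting each well equally gave ratios to the uncultured plate of 0.510 for Gdnf on the E12.5 plate, and for the E11.5 cultured plate 0.378 for Ret, 1.60 for Spry1 and 1.12 for Etv5. Odd plate columns alone gave 0.293 for Gdnf and 1.66 for Spry1 on the E11.5 cultured plate. Even columns gave 0.0415 for Gdnf and 1.03 for Spry1 there, and 0.699 for Spry1 on the E12.5 plate. Thinning gave 1.87 for Spry1 and 0.0624 for Etv4 on the E11.5 cultured plate. Of 174 alternative values of the plate ratios 155 stayed within the main interval, and 0 of those with an interval that left out 1 changed direction.

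By well class on the uncultured plate, thinning turned Gfra1 in Six2 wells to 0.267, Etv4 in Six2 wells to 0.601, Ret in Foxd1 wells to 1.29 and Spry1 in Epcam wells to 0.959. Exclusive classes, each set against wells with 1 other marker or none of the 3 and not against all other wells, turned Gdnf in Foxd1 wells to 0.528 and Etv4 there to 0.453, which equal weighting put at 0.925. Leaving out very deep wells turned Gdnf in Epcam wells to 0.842. Exclusive classes without very deep wells, an alternative chosen after seeing the data, gave 0.907 for Etv5 in Six2 wells, 0.555 for Gdnf and 0.436 for Etv4 in Foxd1 wells. On the E12.5 cultured plate Spry1 in Epcam wells turned to 0.770 with at least 2 marker counts, 0.448 in exclusive classes and 0.446 in those without very deep wells. On the E11.5 cultured plate Ret in Foxd1 wells turned to 0.173 with at least 2 marker counts, and to 0.965 without very deep wells, in exclusive classes too. The causes were not tested. In all, 17 of 267 class values reversed and 184 were within the main interval. Of 34 multi-cell values 33 were. Of the list medians that of the RET targets on the E12.5 plate turned to 0.08 among genes with at least 50 counts. Alternatives that left 0 counts gave no value.

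No paired analysis was possible because each group is 1 plate. The counts of Ret, 3 to 54 a plate, limit every statement on it, and wells of 1 plate are not replicates. Wells with Six2 or Foxd1 alone between plates, multi-cell values without very deep wells and Epcam values without well F6 were also chosen after seeing the data.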

Other observations

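Etv5 counts were found in macrophage wells of each plate, but the rule does not take macrophages alone on the cultured plates. Macrophage wells of the E12.5 cultured plate had 24352 CPM of stromal and 5373 CPM of macrophage markers. Those of the E11.5 cultured plate had 10919 and 8069 CPM, and those of the uncultured plate 723 and 13857 CPM. Etv5 was at 51.3 CPM in the 6 macrophage wells of the E12.5 cultured plate and 23.5 CPM outside them (2.18, 0.836 to 4.82), at 39.2 and 27.0 CPM in the 23 of the E11.5 cultured plate (1.45, 0.759 to 2.59) and at 57.8 and 32.8 CPM in the 20 of the uncultured plate (1.76, 0.745 to 3.58). All 3 intervals include 1 when very deep wells are kept. On the E12.5 cultured plate 1 of the 6 macrophage wells was very deep. Without very deep wells Etv5 was in all 5 macrophage wells there, at 117 CPM (7 counts, 47.1 to 242). Over all kept wells it was then at 28.0 CPM (21.2 to 36.4). Spry1 in uncultured macrophage wells had 1 count (7.23 CPM), a ratio to the wells outside of 0.0461 (0.00116 to 0.258), and in those of the E11.5 cultured plate it was at 165 CPM, in 12 of 23 wells.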
